A study of Mus musculus with 36 samples.

Results

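The genes described here across 5 diets of the mouse are 8 genes of the kidney, Cbx7, Plekha7, Adgrf5, Gna14, Tmem64, Snx31, Tspan13 and Anxa13. They were chosen by their change in these same arrays, for a common direction after 3-day fasting, a protein-free diet of 3 days and 2 weeks of 30% dietary restriction (30%DR), so their values in those 3 comparisons are given as a description and without a test. Their response to a carbohydrate-free (CHO-free) and to a fat-free diet, which the choice did not use, is tested, although the CHO-free and fat-free mice share their Control mice with the protein-free mice. The 8 genes are 8 of 17097 genes with a symbol of their own on the array and are covered by 17 of its 45141 probe sets.

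The study asked which kidney transcripts respond to short diets of the kind that protect mice against renal ischemia-reperfusion injury, and RNA was taken right after the diet, with no ischemia. It reports fasting, 2-week 30%DR and the protein-free diet as protective, and the CHO-free and fat-free diets as not protective. All mice were male C57BL/6, were 10 to 12 weeks old and had 7 days on the standard chow SDS before the diet began. The groups were 3-day fasting (4 mice) with ad libitum SDS mice of its own cohort (5 mice), 2-week 30%DR (5 mice) with ad libitum SDS mice (3 mice), and the 3-day protein-free (5 mice), CHO-free (5 mice) and fat-free (4 mice) diets with mice on the Control diet (5 mice). Each of the 36 arrays holds the kidney RNA of 1 mouse. The 30%DR mice got their ration once a day, and their controls ate at will. The CHO-free diet was high in protein and the protein-free diet high in carbohydrate. Whole kidney was measured, in which fewer cells of a type and less RNA per cell cannot be told apart.

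The genes belong to no single pathway. Cbx7 is a chromodomain subunit of Polycomb repressive complex 1 (PRC1), which binds trimethylated lysine 27 of histone H3 and keeps target genes silent. Plekha7 sits at the zonula adherens of epithelia with p120-catenin, Adgrf5 is an adhesion G protein-coupled receptor known for the control of lung surfactant and, in mouse kidney, of acid secretion by intercalated cells, and Gna14 is an alpha subunit of the Gq class, which couples receptors to phospholipase C beta. Tmem64 is a membrane protein that binds the calcium pump Serca2 in mouse osteoclasts. Snx31 is a sorting nexin of endosomes studied in the urothelium of the bladder, Tspan13 is a tetraspanin of the cell surface, and Anxa13 is an annexin of epithelia, a protein that binds phospholipid in the presence of calcium.

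Values are log2 signals as deposited, and a difference of 1 on this scale is a doubling. A probe set is a group of probes on the array that together measure 1 transcript. It was called when its false discovery rate over all probe sets was under 5% and its fold change at least 1.5 (limma), and each gene is represented by its brightest probe set unless another is named. The fold changes are diet over its own control. The 2 cohorts were normalized apart, so levels are compared within a cohort only. Array medians were 4.15 to 4.21 for the fasting experiment, against 3.62 to 3.76 for all other arrays. The proximal tubule marker Cubn, the endocytic receptor cubilin, was among the brighter transcripts of this kidney tissue on all arrays, at 10.21 to 11.43. The difference between the 3' and 5' Gapdh control probe sets, which grows as RNA is degraded, lay between 0.98 and 2.45 in CHO-free mice and between 0.65 and 0.96 in Control mice (exact permutation test, two-sided p = 0.00794, adjusted p = 0.0556 over 7 comparisons). It lay between 1.04 and 2.22 in 30%DR mice, against 0.93 to 1.73 in their SDS mice, and reached 2.19 in protein-free and 1.78 in fat-free mice.

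By the brightest probe set, 2 of the 8 genes were called higher and 5 lower after fasting, where 5.31% of all probe sets were called. In 30%DR 2 were higher and 3 lower (0.919% of all probe sets), and on the protein-free diet 2 were higher and 4 lower (0.738%). These counts follow from the choice of the genes. On the CHO-free diet 1 gene was called higher and 3 lower, where 3.6% of all probe sets were called, and on the fat-free diet 0 of the 8 were called by limma, where 0% of all probe sets were. At an unadjusted p under 0.05 the fat-free diet had 2 of the 8 genes and 2089 of all probe sets. The median absolute log2 fold change of the 8 genes was 0.54 on the CHO-free diet, against 0.12 over all probe sets, and 0.22 on the fat-free diet, against 0.08 over all. These medians are not of like sets, since the genes are taken by their brightest probe sets and all probe sets include dim ones. The same Control mice also served in the choice of the genes.

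**Figure D1:**
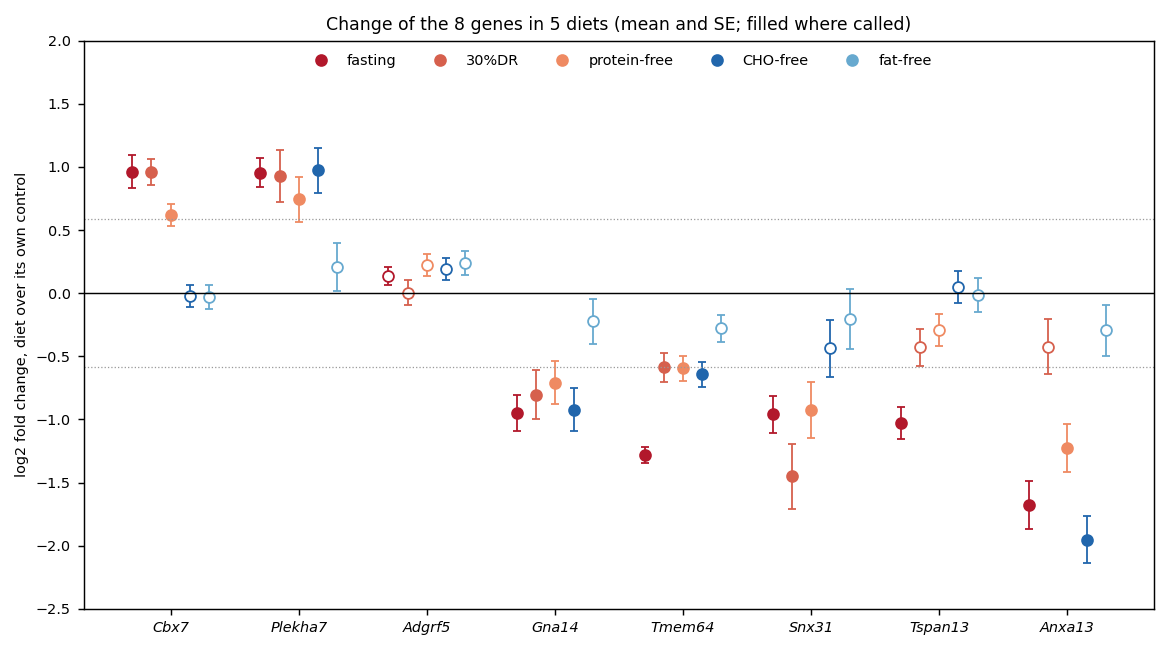
Log2 fold change of the brightest probe set of each gene in 5 diets, each over its own control, with the SE of the limma fit. Filled points were called, the dotted lines mark a 1.5-fold change, and the first 3 diets are those the genes were chosen on. Plekha7, Gna14 and Tmem64 have filled points in all diets but the fat-free one, while Cbx7 lies near 0 on the CHO-free and fat-free diets.

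All arrays of a diet lay above or all below those of its control for 7 genes after fasting (17.2% of all probe sets did), for 5 genes in 30%DR (8.42%) and for 6 on the protein-free diet (3.46%). The CHO-free diet had 3 such genes, Gna14, Tmem64 and Anxa13, all lower, against 5.39% of all probe sets. The fat-free diet had 0 of the 8, against 1.61% of all probe sets. The counts after fasting, in 30%DR and on the protein-free diet follow from the choice of the genes. The shares are of all probe sets, dim ones included, while the genes are taken by their brightest.

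**Figure D2:**
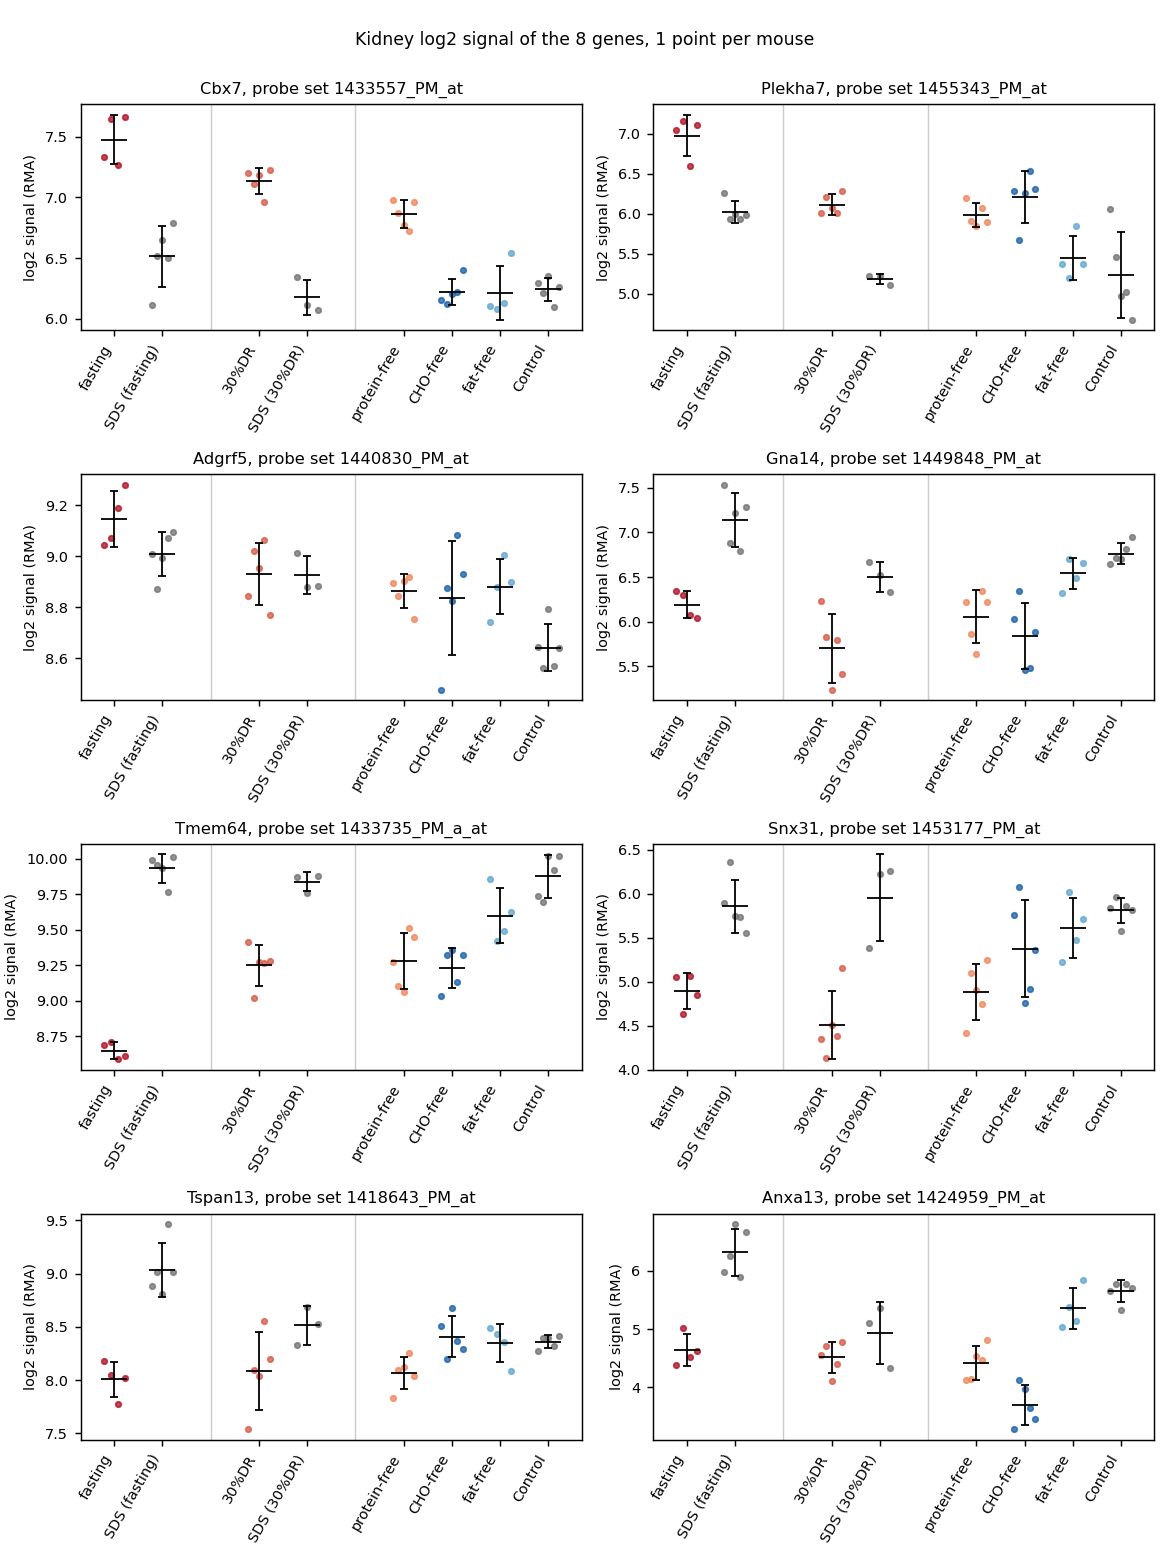
Log2 signal of the brightest probe set of each gene in each of 36 mice, with group mean and SD as black bars. Grey points are the control mice of each block, and the y axes differ between panels and do not start at 0. The 4 fasted mice lie apart from their 5 SDS mice in 7 of the 8 panels, all but Adgrf5.

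Cbx7 was higher in the 3 diets it was chosen on and was not called on the CHO-free and fat-free diets. The gene lies on chromosome 15, at 79915804 to 79971143 of the RefSeq assembly GRCm38.p6. The fasted mice had 7.34, 7.65, 7.27 and 7.66, against 6.12, 6.52, 6.65, 6.50 and 6.79 in SDS mice, a log2 fold change of 0.96 (SE 0.13) with no overlap. The 30%DR mice had 7.20, 7.11, 7.19, 6.97 and 7.22, against 6.34, 6.12 and 6.07 in their SDS mice, a log2 fold change of 0.96 (SE 0.10). The protein-free mice had 6.98, 6.87, 6.78, 6.72 and 6.96, against 6.29, 6.21, 6.35, 6.10 and 6.26 on the Control diet, a log2 fold change of 0.62 (SE 0.09). Every array of these 3 diets was above every array of its control. The CHO-free mice had 6.15, 6.12, 6.20, 6.22 and 6.40 and the fat-free mice 6.10, 6.08, 6.13 and 6.54, overlapping the Control range. Neither diet was called, with log2 fold changes of -0.02 (SE 0.09, adjusted p = 0.917) and -0.03 (SE 0.09, adjusted p = 0.998). One fat-free mouse, at 6.54, stood above the 3 others at 6.08 to 6.13. In the order of the 6 groups normalized together, 30%DR (mean 7.14) and protein-free (6.86) came first, with ranges that overlapped, and Control (6.24), CHO-free (6.22), fat-free (6.21) and SDS (6.18) followed with overlapping ranges. The 2 other probe sets of Cbx7 were near or below the array medians, with means between 2.76 and 3.88 over the 8 groups, and were called in no comparison.

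RefSeq gives a Cbx7 start on the minus strand of chromosome 15 that lies inside the gene's interval, and the 300 bases around it (250 before and 50 after the start, GRCm38.p6, chr15:79932597-79932896, minus strand) are printed here because they are the densest in CpG among the genes' promoters. They hold 33 CpG dinucleotides and are 67.3% G and C, where the median of 32851 RefSeq promoters is 7 CpG and 52.7%.
Cbx7: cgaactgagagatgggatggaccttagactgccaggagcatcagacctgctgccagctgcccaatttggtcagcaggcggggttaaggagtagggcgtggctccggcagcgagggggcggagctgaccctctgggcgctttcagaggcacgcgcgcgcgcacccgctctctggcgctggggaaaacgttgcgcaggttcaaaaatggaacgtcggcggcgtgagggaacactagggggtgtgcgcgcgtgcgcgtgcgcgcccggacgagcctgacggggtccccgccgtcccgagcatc
Promoters were given for 4 of the 8 genes, as 5 windows in all. That of Tspan13 had 26 CpG and 67.3% G and C, that of Gna14 7 CpG and 58.0%, and the 2 windows of Adgrf5 had 8 CpG each, with 54.3% and 47.3%. Each window was searched on both strands for GTAAACA (the core bound by FOXO factors), CAAAGTCCA (HNF4A), CACGTG (E-box), TGACTCA (AP-1), AGAACA (half-site of the glucocorticoid receptor), TTATGCAA (D-box) and TGACGTCA (CRE). One match was found, AGAACA in the downstream window of Adgrf5, and 19.0% of all promoters hold that motif. The others are held by 3.65%, 0.475%, 7.15%, 5.2%, 0.743% and 1.79% of all promoters for FOXO, HNF4A, E-box, AP-1, D-box and CRE.

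Plekha7 was higher in the 3 chosen diets and on the CHO-free diet too. It lies on chromosome 7, at 116123485 to 116308383. The fasted mice had 7.04, 7.16, 6.59 and 7.11, against 6.26, 5.94, 5.99, 5.93 and 5.99 in SDS mice (log2 fold change 0.96, SE 0.11). The 30%DR mice had 6.00, 6.21, 6.07, 6.00 and 6.28, against 5.23, 5.22 and 5.11 in SDS mice (log2 fold change 0.93, SE 0.20). In both comparisons the diet arrays lay wholly above the control arrays. The protein-free mice had 6.20, 5.90, 5.85, 6.07 and 5.89 and the CHO-free mice 6.28, 5.67, 6.26, 6.53 and 6.31, against 6.05, 5.46, 4.97, 5.03 and 4.68 on the Control diet. The Control mice spread over more than a doubling, and the highest of them, at 6.05, lay within the range of both diets. The log2 fold change was 0.75 (SE 0.18) on the protein-free diet and 0.97 (SE 0.18, adjusted p = 0.000899) on the CHO-free diet, a fold of 1.96. The fat-free mice had 5.37, 5.20, 5.84 and 5.37, all within the Control range (log2 fold change 0.21, SE 0.19, adjusted p = 0.998). Their difference from the CHO-free mice was called, at a log2 fold change of CHO-free over fat-free of 0.76 (SE 0.19, adjusted p = 0.0253), although the call was lost in several alternatives that are given in the closing section. The order of means was CHO-free 6.21, 30%DR 6.11 and protein-free 5.98, which overlapped, and then fat-free 5.45, Control 5.24 and SDS 5.18, which overlapped too. A dim second probe set, at means of 3.29 to 3.91, was called in no comparison.

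Plekha7 was higher in mice with a larger Gapdh difference, at r = 0.40 over 36 arrays with the group means removed. When the difference entered the fit as a covariate, the CHO-free log2 fold change was 0.68 and the protein-free one 0.60, against 0.97 and 0.75 without it, and neither was called any longer. Fasted and SDS mice had Gapdh differences of 0.84 to 1.05 and 0.60 to 1.23, and the fasting log2 fold change of Plekha7 was 0.96 with or without the covariate. Beyond this fit, the part of RNA quality in the CHO-free value was not tested.

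Adgrf5, on chromosome 17 at 43360329 to 43459557, has a pair of probe sets that differed. The brighter one, 1440830_PM_at, was called in none of the 5 diets. Its fasted mice had 9.04, 9.07, 9.19 and 9.28, against 9.01, 8.87, 8.99, 9.07 and 9.09 in SDS mice (log2 fold change 0.14, SE 0.07), and its log2 fold changes were 0.00 (SE 0.10) in 30%DR, 0.22 (SE 0.09) on the protein-free, 0.20 (SE 0.09, adjusted p = 0.159) on the CHO-free and 0.24 (SE 0.09, adjusted p = 0.998) on the fat-free diet. Diet and control arrays of this probe set overlapped in all 5 diets. The dimmer one, 1440225_PM_at, carried the change for which the gene was chosen. Its fasted mice had 7.04, 6.99, 7.02 and 7.41, against 5.54, 6.10, 5.98, 6.36 and 6.17 in SDS mice, a log2 fold change of 1.08 (SE 0.15). The 30%DR mice had 6.38, 6.42, 6.22, 6.28 and 6.41, against 6.37, 5.75 and 5.75 in SDS mice (log2 fold change 0.39, SE 0.16), with 1 SDS mouse as high as the 30%DR mice. The protein-free mice had 6.40, 6.22, 6.29, 6.68 and 6.16, the CHO-free mice 6.00, 5.95, 6.39, 6.46 and 6.50 and the fat-free mice 5.93, 5.65, 6.08 and 6.02, against 5.79, 5.49, 5.36, 5.76 and 6.01 on the Control diet. The protein-free arrays lay wholly above the Control arrays, at a log2 fold change of 0.67 (SE 0.14). The CHO-free value was 0.58 (SE 0.14, adjusted p = 0.00781), which passed the false discovery rate and, at a fold of 1.49, not the fold minimum. The fat-free value was 0.24 (SE 0.15, adjusted p = 0.998). Over 36 arrays with the group means removed the 2 probe sets correlated at r = 0.35. With the Gapdh difference the dimmer one correlated at r = 0.48 and the brighter one at r = 0.23. The fit with that covariate was looked at for the brighter one only, so the part of RNA quality in the dimmer one's change was not tested.

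The window around the downstream start of Adgrf5 (GRCm38.p6, chr17:43389216-43389515, plus strand) is printed because it holds the 1 motif match, in capitals at position 104 counted from its 5′ end.
Adgrf5, downstream start: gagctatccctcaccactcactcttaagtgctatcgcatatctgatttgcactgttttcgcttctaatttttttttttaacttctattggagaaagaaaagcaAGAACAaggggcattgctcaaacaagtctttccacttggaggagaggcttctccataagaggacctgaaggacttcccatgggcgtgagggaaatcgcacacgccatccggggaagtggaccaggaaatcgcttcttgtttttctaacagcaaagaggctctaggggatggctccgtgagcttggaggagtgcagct

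**Figure D3:**
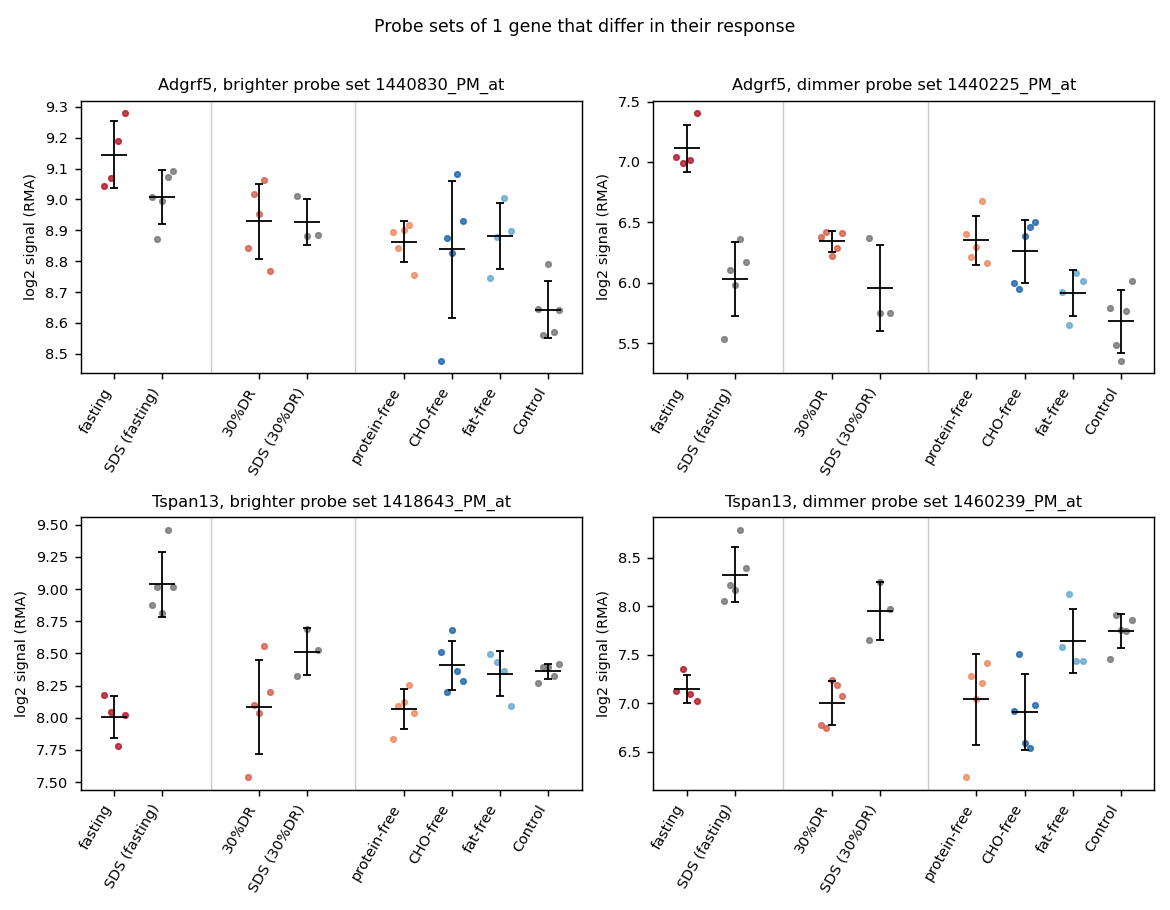
Log2 signal of both probe sets of Adgrf5 (upper row) and of Tspan13 (lower row) in each of 36 mice, with mean and SD, on y axes that differ between panels and do not start at 0. The dimmer probe set of Tspan13 is lower on the CHO-free diet (mean 6.91, against 7.75 in Control mice) while the brighter one is not (8.41, against 8.36).

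Gna14 was lower in the 3 chosen diets and on the CHO-free diet. It lies on chromosome 19, at 16435667 to 16610818. After fasting the values were 6.34, 6.30, 6.08 and 6.05, against 7.54, 6.88, 7.21, 6.79 and 7.28 in SDS mice (log2 fold change -0.95, SE 0.14). In 30%DR the values were 6.23, 5.83, 5.24, 5.79 and 5.41, against 6.66, 6.52 and 6.33 in SDS mice (log2 fold change -0.80, SE 0.19). Both diets lay wholly below their controls. The protein-free mice had 6.22, 5.86, 5.64, 6.34 and 6.22 and the CHO-free mice 6.03, 6.34, 5.46, 5.48 and 5.88, against 6.64, 6.71, 6.70, 6.82 and 6.95 on the Control diet. No array of these 2 diets reached the lowest Control array, and the log2 fold change was -0.71 (SE 0.17) on the protein-free and -0.92 (SE 0.17, adjusted p = 0.000848) on the CHO-free diet. The fat-free mice had 6.32, 6.71, 6.49 and 6.65 (log2 fold change -0.22, SE 0.18, adjusted p = 0.998). CHO-free mice were lower than fat-free mice, at -0.70 (SE 0.18, adjusted p = 0.0293), a call that several alternatives lost. The order of means was Control 6.76, fat-free 6.54, SDS 6.50, protein-free 6.06, CHO-free 5.84 and 30%DR 5.70, and each neighbour overlapped the next. When the Gapdh difference was in the fit, the CHO-free log2 fold change was -0.75 and the protein-free one -0.62, and both lost their call.

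The 2 other Gna14 probe sets moved less. The nearly as bright 1420385_PM_at had log2 fold changes of -0.11 (SE 0.12) after fasting, -0.30 (SE 0.16) in 30%DR, -0.43 (SE 0.14) on the protein-free diet and -0.39 (SE 0.14, adjusted p = 0.0682) on the CHO-free diet, and was called in none. The dimmest, 1447791_PM_s_at, had values between -0.30 (SE 0.16) and 0.19 (SE 0.15) in the 5 diets and was called in none either. With the mean of all 3 probe sets the CHO-free log2 fold change of Gna14 was -0.47 and not called. The 300 bases around the Gna14 start (GRCm38.p6, chr19:16435417-16435716, plus strand) are printed as the contrast to Cbx7, a window with 7 CpG and 0 of the 7 motifs.
Gna14: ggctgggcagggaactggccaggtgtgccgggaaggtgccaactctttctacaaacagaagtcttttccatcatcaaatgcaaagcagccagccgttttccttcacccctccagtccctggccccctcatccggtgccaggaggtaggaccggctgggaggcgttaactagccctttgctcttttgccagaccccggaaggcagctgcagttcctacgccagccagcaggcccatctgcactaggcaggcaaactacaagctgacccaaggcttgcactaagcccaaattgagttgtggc

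Tmem64 was lower in the 3 chosen diets and fell on the CHO-free diet in all 3 of its probe sets. It lies on chromosome 4, at 15265820 to 15286753. After fasting the values were 8.69, 8.71, 8.59 and 8.61, against 9.99, 9.95, 9.93, 9.76 and 10.01 in SDS mice (log2 fold change -1.28, SE 0.06). Restricted mice (30%DR) had 9.42, 9.02, 9.27, 9.27 and 9.28, against 9.87, 9.76 and 9.88 in SDS mice (log2 fold change -0.59, SE 0.12). The groups were apart in both, and by more than the spread within either group after fasting. On the protein-free diet the values were 9.28, 9.11, 9.06, 9.51 and 9.45, on the CHO-free diet 9.03, 9.32, 9.35, 9.13 and 9.32 and on the fat-free diet 9.86, 9.42, 9.49 and 9.62, against 9.74, 9.69, 10.01, 9.92 and 10.02 on the Control diet. All protein-free and CHO-free arrays lay below all Control arrays, and the fat-free arrays overlapped them. The log2 fold changes were -0.60 (SE 0.10) on the protein-free, -0.64 (SE 0.10, adjusted p = 0.000202) on the CHO-free and -0.28 (SE 0.11, adjusted p = 0.998) on the fat-free diet. The CHO-free fall was -0.85 (SE 0.10, adjusted p = 3.88e-06) for 1454709_PM_at and -0.92 (SE 0.17, adjusted p = 0.000909) for 1434307_PM_at. In the 3 chosen diets 1454709_PM_at was called each time. Its values were -1.22 (SE 0.09) after fasting, -0.73 (SE 0.11) in 30%DR and -0.70 (SE 0.10) on the protein-free diet. The dimmest, 1434307_PM_at, was called after fasting (-0.72, SE 0.08). It was not called in 30%DR (-0.71, SE 0.19) or on the protein-free diet (-0.48, SE 0.17). Against fat-free mice the CHO-free mice were lower by the 2 dimmer probe sets, at -0.64 (SE 0.10, adjusted p = 0.000849) and -0.89 (SE 0.18, adjusted p = 0.00608), and the brightest missed the threshold, at -0.36 (SE 0.11, adjusted p = 0.0634). With the Gapdh difference 1454709_PM_at correlated at r = -0.50, 1434307_PM_at at r = -0.405 and the brightest at r = -0.12, over 36 arrays with group means removed. For the 2 dimmer probe sets the part of RNA quality was not tested. For the brightest, the Gapdh covariate left the CHO-free value at -0.62 and called, while the values of -0.58 on the protein-free diet and in 30%DR fell just under the fold minimum and lost their call. Quantile normalization took the calls of all 3 of these diets away, with a CHO-free value of -0.58. The order of means was Control 9.88, SDS 9.84, fat-free 9.60, protein-free 9.28, 30%DR 9.25 and CHO-free 9.23, with overlap between all neighbours.

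Snx31 was lower in the 3 chosen diets and not called in the others. It lies on chromosome 15, at 36504062 to 36560129, and has 1 probe set. The fasted mice had 5.05, 4.63, 5.06 and 4.85, against 5.90, 6.36, 5.75, 5.74 and 5.56 in SDS mice (log2 fold change -0.96, SE 0.15). In 30%DR the values were 4.35, 4.13, 4.50, 4.38 and 5.15, against 5.38, 6.22 and 6.26 in SDS mice (log2 fold change -1.45, SE 0.26). These groups did not overlap, and the 30%DR difference is the largest of the 8 genes in that diet. On the protein-free diet the values were 4.42, 5.10, 4.91, 4.74 and 5.25, on the CHO-free diet 5.76, 6.07, 4.76, 4.92 and 5.37 and on the fat-free diet 5.22, 6.02, 5.47 and 5.72, against 5.84, 5.97, 5.58, 5.86 and 5.82 on the Control diet. The protein-free arrays lay below all Control arrays (log2 fold change -0.93, SE 0.22), while the CHO-free mice spread on both sides of the Control range (log2 fold change -0.44, SE 0.22, adjusted p = 0.231) and the fat-free mice overlapped it (log2 fold change -0.20, SE 0.24, adjusted p = 0.998). Of the 8 genes it followed the Gapdh difference most closely by absolute r among the brightest probe sets, at r = -0.67 over 36 arrays with group means removed. The 2 CHO-free mice with the largest Gapdh differences, 2.45 each, were the 2 lowest in Snx31, at 4.76 and 4.92, and the CHO-free mouse with the smallest, 0.98, was the highest, at 6.07. With the covariate the CHO-free log2 fold change turned to 0.19 and was not called either, the 30%DR one was -1.26 and still called, and the protein-free one was -0.61 and lost its call. The part of RNA quality in these values was not tested further. The order of means was SDS 5.95, Control 5.81, fat-free 5.61, CHO-free 5.38, protein-free 4.88 and 30%DR 4.50, with overlap between all neighbours.

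**Figure D4:**
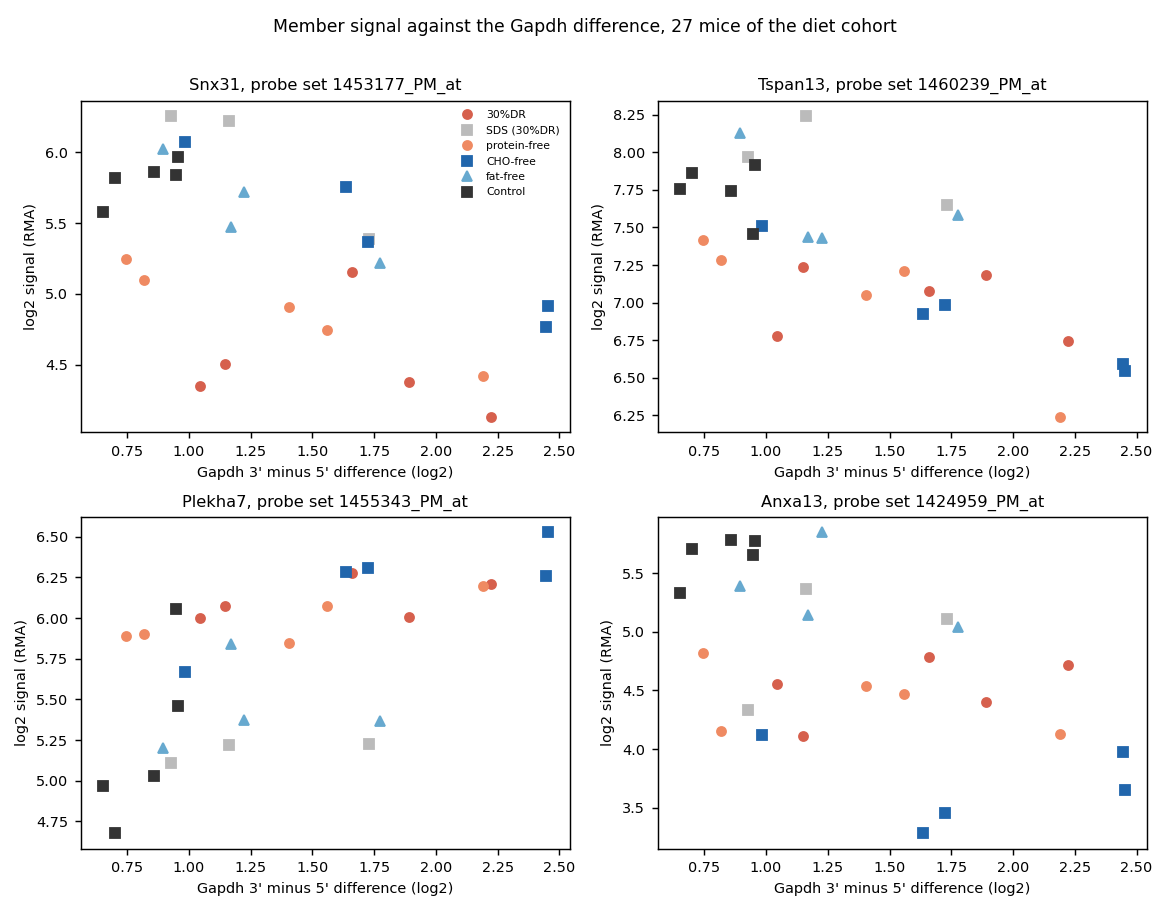
Log2 signal of 4 genes (y axis, not starting at 0) against the 3' minus 5' Gapdh difference (x axis, log2) in the 27 mice of the diet cohort, coloured by group. Snx31 and the dimmer Tspan13 probe set are lower at larger differences, while Anxa13 is low in all 5 CHO-free mice, at 3.28 to 4.12, whatever their difference.

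Tspan13 has a pair of probe sets that were both lower after fasting and parted on the CHO-free diet. It lies on chromosome 12, at 36014555 to 36042478. By the brighter probe set the fasted mice had 8.18, 8.04, 7.78 and 8.02, against 8.88, 9.01, 8.81, 9.46 and 9.02 in SDS mice (log2 fold change -1.03, SE 0.13), with no overlap. The 30%DR mice had 7.54, 8.10, 8.04, 8.56 and 8.20, against 8.33, 8.69 and 8.52 in SDS mice (log2 fold change -0.43, SE 0.15, not called). Its value was -0.29 (SE 0.13) on the protein-free, 0.05 (SE 0.13, adjusted p = 0.868) on the CHO-free and -0.02 (SE 0.14, adjusted p = 0.999) on the fat-free diet. By the dimmer probe set, 1460239_PM_at, the fasted mice had 7.13, 7.36, 7.09 and 7.02, against 8.06, 8.22, 8.17, 8.79 and 8.39 in SDS mice (log2 fold change -1.18, SE 0.13). Restricted mice (30%DR) had 6.78, 6.74, 7.24, 7.18 and 7.08, against 7.65, 8.24 and 7.97 in SDS mice (log2 fold change -0.95, SE 0.22). Both differences were called and neither pair of groups overlapped. On the protein-free diet the values were 6.24, 7.28, 7.05, 7.21 and 7.42, on the CHO-free diet 6.93, 7.51, 6.59, 6.54 and 6.98 and on the fat-free diet 7.58, 8.13, 7.43 and 7.43, against 7.46, 7.91, 7.75, 7.74 and 7.86 on the Control diet. The protein-free value was -0.71 (SE 0.19) and not called, the CHO-free fall was -0.83 (SE 0.19, adjusted p = 0.00629) and called, and the fat-free value was -0.10 (SE 0.20, adjusted p = 0.998). One CHO-free mouse, at 7.51, lay within the Control range, and its Gapdh difference was the smallest of the diet. The dimmer probe set correlated with the Gapdh difference at r = -0.60 and the brighter one at r = 0.29, over 36 arrays with group means removed, and the part of RNA quality in the CHO-free fall was not tested. Whether the pair of probe sets differed from each other was not tested.

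Anxa13 gave the largest differences of the 8 genes on the CHO-free diet and after fasting. It lies on chromosome 15, at 58341464 to 58389274, and has 1 probe set. The fasted mice had 4.39, 5.02, 4.52 and 4.63, against 5.97, 6.26, 6.80, 5.89 and 6.66 in SDS mice (log2 fold change -1.68, SE 0.19), with no overlap. The 30%DR mice had 4.56, 4.72, 4.11, 4.41 and 4.78, against 5.11, 5.36 and 4.34 in SDS mice, a log2 fold change of -0.42 (SE 0.22) that was not called, and 1 SDS mouse was as low as the 30%DR mice. The protein-free mice had 4.13, 4.15, 4.54, 4.47 and 4.82, the CHO-free mice 3.28, 4.12, 3.97, 3.65 and 3.46 and the fat-free mice 5.04, 5.39, 5.14 and 5.85, against 5.66, 5.77, 5.33, 5.78 and 5.70 on the Control diet. Protein-free and CHO-free arrays lay wholly below the Control arrays, and the 5 CHO-free arrays lay below the 5 protein-free arrays as well. The log2 fold change was -1.23 (SE 0.19) on the protein-free diet, and on the CHO-free diet Anxa13 fell (log2 fold change -1.95, SE 0.19, adjusted p = 2.2e-07). The CHO-free mean of 3.70 is about the median signal of all probe sets on those arrays, a level at which the size of the fall is not well measured. On the fat-free diet the value was -0.29 (SE 0.20, adjusted p = 0.998). CHO-free mice were below fat-free mice, at -1.66 (SE 0.20, adjusted p = 1.6e-05), and this call and that against Control were kept in every alternative run for those comparisons, the Gapdh covariate included, where the CHO-free value was -1.95. Anxa13 correlated with the Gapdh difference at r = -0.04. The order of means was Control 5.65, fat-free 5.35, SDS 4.94, 30%DR 4.51, protein-free 4.42 and CHO-free 3.70, and of the neighbours only protein-free and CHO-free were apart.

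CHO-free mice were set directly against fat-free mice as well. Of the 8 genes, 1 was called higher and 2 lower by the brightest probe set, where 1.25% of all probe sets were called. By dimmer probe sets Tmem64 and Tspan13 were called lower as well, though a gene with several probe sets has more chances of a call. The share of all genes with a call of any probe set was not counted. The comparison uses the same CHO-free arrays as that with the Control diet.

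Control diet mice were compared with the SDS mice of the same cohort, since 30%DR was set against SDS chow and the macronutrient-free diets against the Control diet. None of the 8 genes was called by limma, where 0.0465% of all probe sets were, while at an unadjusted p under 0.05 there were 2 of the 8 and 2862 of all probe sets. The 2 were Anxa13, at 0.71 (SE 0.22, adjusted p = 0.396), and Adgrf5, at -0.28 (SE 0.10, adjusted p = 0.541). With Control and SDS mice joined as 1 control group, the 30%DR log2 fold change of Anxa13 was -0.87 and was called, which made 6 genes called in 30%DR, against 5.

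Genes related to the 8 by family or partner were counted beside all genes. Of 136 such genes measured, limma called 4 after fasting (2.94%, against 6.45% of all 17097 genes), 2 in 30%DR and 2 on the protein-free diet (1.47% each, against 1.12% and 1.02%) and 7 on the CHO-free diet (5.15%, against 4.11%). At an unadjusted p under 0.05 the share of all genes was 34.5% after fasting, 13.3% in 30%DR, 13.8% on the protein-free, 27.2% on the CHO-free and 4.87% on the fat-free diet. Of 20 measured subunits of PRC1 and PRC2, the Polycomb complexes to which Cbx7 belongs, limma called 0 in any of 7 comparisons, with 1 to 10 at an unadjusted p under 0.05 and list medians between -0.04 and 0.13. In 30%DR Cbx2 passed the false discovery rate but not the fold minimum (0.49, adjusted p = 0.0314), and Cbx6 passed neither (0.04, adjusted p = 0.957). Of 11 measured genes of Gq signalling limma called 0 as well, with 1 to 7 at an unadjusted p under 0.05, and the closest relatives of Gna14, Gnaq and Gna11, had CHO-free log2 fold changes of 0.03 (SE 0.07, adjusted p = 0.826) and -0.16 (SE 0.11, adjusted p = 0.392). After fasting Gnaq passed the false discovery rate but not the fold minimum (0.40, adjusted p = 0.00152), and Gna11 passed neither (0.17, adjusted p = 0.0875). Of 10 other annexins 0 were called, with 0 to 4 at an unadjusted p under 0.05. Among 19 genes of adherens and tight junctions 1 was called, Plekha6, a relative of Plekha7, which fell by 0.72 on the log2 scale after fasting (adjusted p = 8.5e-05).

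Tmem41a, a membrane protein of the same family as Tmem64, fell after fasting (log2 fold change -0.77, adjusted p = 0.000418), on the protein-free diet (-0.62, adjusted p = 0.0362) and on the CHO-free diet (-1.31, adjusted p = 5.8e-06). Atp2a2, which encodes the calcium pump Serca2, fell in 30%DR (-0.62, adjusted p = 0.00225). These were 2 of the 4 genes in their list. Of 28 other sorting nexins 2 fell on the CHO-free diet, Snx7 (-0.76, adjusted p = 0.00618) and Snx10 (-0.62, adjusted p = 0.0128). Of 23 other tetraspanins Tspan4 rose in 30%DR (0.80, adjusted p = 0.000275) and on the protein-free diet (0.82, adjusted p = 2.2e-05), and Tspan18 rose on the CHO-free diet (0.63, adjusted p = 0.00157). Cd53, a tetraspanin of leukocytes, fell after fasting (-0.63, adjusted p = 0.00368) and on the CHO-free diet (-0.63, adjusted p = 0.0445). Of 21 other adhesion receptors Celsr1, a planar polarity receptor, and Adgrg1 rose on the CHO-free diet (1.14, adjusted p = 0.000498, and 0.87, adjusted p = 0.0113), and Adgre1, a marker of macrophages, fell after fasting (-0.77, adjusted p = 0.00259).

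Markers of kidney and other cell types were called as well. Of 65 markers measured, limma called 2 higher and 14 lower after fasting (24.6%, against 6.45% of all genes), 1 in 30%DR (1.54%, against 1.12%), 4 on the protein-free diet (6.15%, against 1.02%), 9 on the CHO-free diet (13.8%, against 4.11%) and 0 on the fat-free diet. Slc4a1 is in the lists of intercalated cells and of red blood cell precursors, so it counts for 2 of the 65 and for 2 of the 9. Of 5 measured markers of intercalated cells 2 rose on the CHO-free diet, the anion exchanger Slc4a1 (1.09, adjusted p = 7.9e-08) and the water channel Aqp6 (0.93, adjusted p = 0.00138), and 3 were not called. Foxi1 of the same list fell on the protein-free diet (-0.60, adjusted p = 0.0482). The mean of the intercalated cell list was 8.34 to 8.57 in CHO-free mice and 7.68 to 8.30 in Control mice (exact permutation test, two-sided p = 0.00794, adjusted p = 0.0555 over 7 comparisons). Of 6 principal cell markers limma called 0 on the CHO-free diet, with 4 at an unadjusted p under 0.05. Their list mean was 7.76 to 7.98 in CHO-free mice and 7.24 to 7.69 in Control mice, a difference that was not tested. Of 9 endothelial markers limma called 0 in any comparison, with 0 to 5 at an unadjusted p under 0.05. Of 6 urothelial markers Upk3a alone was called, higher after fasting (0.62, adjusted p = 0.0142) and on the CHO-free diet (0.65, adjusted p = 0.0475), diets in which Snx31 was lower or not called. Of 8 leukocyte markers 4 fell after fasting and 2 on the CHO-free diet. Of 6 markers of stroma and smooth muscle 2 fell after fasting and 1 on the protein-free diet, and Col3a1, a collagen, was among them both times, after fasting (-2.23, adjusted p = 1.1e-06) and on the protein-free diet (-1.16, adjusted p = 0.00388). After fasting 2 of 6 proximal tubule markers fell, Slc5a2 (-0.89, adjusted p = 0.00082) and Slc7a13 (-0.89, adjusted p = 2.5e-05), and 2 of 4 of the distal convoluted tubule, Pvalb (-1.01, adjusted p = 7.7e-05) and Calb1 (-0.94, adjusted p = 5.9e-06). Of 3 markers of red blood cell precursors 2 fell after fasting and 2 on the protein-free diet, and 1, Slc4a1, rose on the CHO-free diet. The mean of 3 adipocyte markers was 7.42 to 8.15 in 30%DR mice, against 8.15 to 9.34 in their SDS mice (exact permutation test, two-sided p = 0.0357, adjusted p = 0.125 over 7 comparisons), and 6.34 to 7.54 in Control mice, against the same SDS mice (p = 0.0357, adjusted p = 0.125), where Fabp4 was called lower (-1.15, adjusted p = 0.0394). When the adipocyte mean was in the fit as a covariate, the 30%DR call of Plekha7 was lost and those of Cbx7, Gna14, Tmem64 and Snx31 were kept. With group means removed, Plekha7 had r = 0.55 with the mean of 6 principal cell markers and Tmem64 r = -0.51 with that of the intercalated cell markers, over 36 arrays. Neither was particular to 1 cell type. Plekha7 also had r = 0.39 with intercalated cell markers, and Tmem64 -0.40 with proximal tubule and -0.33 with principal cell markers. The dimmer Tmem64 probe sets had r = -0.41 (1454709_PM_at) and -0.22 (1434307_PM_at) with intercalated cell markers, and -0.58 and -0.37 with principal cell markers. Beyond the fit with adipocyte markers, the part of these cells in the results was not tested.

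Of 3 clock genes looked at for context, Dbp, a clock output gene, rose in the 4 diets in which the 8 genes had calls, by log2 fold changes of 1.25 after fasting, 3.04 in 30%DR, 1.44 on the protein-free and 1.03 on the CHO-free diet (adjusted p = 0.00556, 3.8e-06, 0.00511 and 0.0181). Arntl, a core clock activator that peaks in the opposite phase, was called lower in 30%DR (-2.61, adjusted p = 1.3e-07) and on the CHO-free diet (-0.69, adjusted p = 0.0186), and Per3 was called higher in 30%DR (1.85, adjusted p = 3.8e-06) and on the protein-free diet (0.77, adjusted p = 0.0123). Called or not, all 3 clock genes had an unadjusted p under 0.05 (limma) after fasting, in 30%DR and on the protein-free diet. On the CHO-free diet 2 of the 3 did. Arntl on the protein-free diet thus missed the call but not the unadjusted threshold. Within groups, the 1454709_PM_at probe set of Tmem64 had r = -0.58 with Dbp and 0.70 with Arntl over 36 arrays, while the brightest had -0.33 and 0.44. The brightest probe set of Plekha7 had r = 0.49 with Dbp, 0.47 with Per3 and -0.41 with Arntl, and its dim one had 0.19 with Dbp and 0.06 with Per3. The part of the clock in the values of the 8 genes was not tested.

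How the 8 genes vary from mouse to mouse within a group was described by r with the group means removed. Of 13 pairs of genes whose fold changes after fasting had the same sign, 8 had r above 0, with a range of -0.41 to 0.30 and a median of 0.05. Of 15 pairs with opposite signs 11 had r below 0, with a range of -0.49 (Adgrf5 and Snx31) to 0.39 (Anxa13 and Cbx7) and a median of -0.09. Those arrays share their normalization and their RNA quality. The 3 genes most like each member were ranked by r over all 36 arrays after the cohort means were removed, among 8710 genes with a mean log2 signal of at least 5, so that shared responses to the diets count in this r, and r with the group means removed is given beside it. Snx31 was most like Pdk3, a pyruvate dehydrogenase kinase (r = 0.90, within groups 0.74), Erp29 (0.86, within groups 0.67) and Idh3a (0.85, within groups 0.60). Plekha7 was most like Dennd3 (0.89, within groups 0.68), Wipi1, an autophagy protein (0.89, within groups 0.63), and Slc6a20a (0.87, within groups 0.50). Adgrf5 was most like Rasgef1b (0.76, within groups 0.75), Rapgef5 (0.71, within groups 0.57) and Arhgap31 (0.70, within groups 0.64), and it kept most of its r within groups. Tmem64 was most like Cenpj (0.93), Idi1, an enzyme of sterol synthesis (0.91), and Pole4 (0.90), for which r within groups was 0.58, 0.39 and 0.26. The genes most like Cbx7 were Ccdc82 (0.87), Zmym5 (0.87) and the copper protein Cp (0.86), those most like Gna14 were Bod1, Mkrn1 and Dleu7 (0.85 each), those most like Tspan13 were Atp11a, Odc1 and Mpv17l (0.84 each), and those most like Anxa13 were Defb29 (0.88), Armh4 (0.84) and Ascc1 (0.84). Within groups, r of these 12 pairs lay between 0.24 and 0.54.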

How the data were processed

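Each of 36 mice gave 1 kidney array of the type HT MG-430 PM from Affymetrix. What was deposited is the log2 signal per probe set from the RMA method, which corrects background, equalizes the distributions of the arrays and summarizes probes by median polish. The authors ran it apart on the fasting cohort and on the other arrays and left out arrays they judged to be outliers. No source used here gives the RMA version. The values, 2.00 to 13.86 over 45141 probe sets, were used as they are, and 0 columns belonged to no sample.

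Gene symbols came from the array annotation (28898 probe sets with 1 symbol, 551 with several, 15692 with none), and positions and promoters from RefSeq GRCm38.p6. No source used here gives the build of the array design. Each cohort was fitted with limma 3.58.1 in R 4.3.3 (lmFit and eBayes over all probe sets of all its arrays), with Benjamini-Hochberg adjustment over all probe sets, and a call needed a fold change of 1.5 or more and a false discovery rate under 5%. The fit was tested on simulated data. The labels split mice into groups, and the 2 SDS groups by the cohort in their animal names. Each mouse is a separate animal, and the number of arrays limits the precision. The 8 genes and the lists of related genes and markers were chosen with earlier results of these data known. The rule for the text names all 8 genes by their probe set with the highest mean over 36 arrays, gives their other probe sets beside it, and names the 3 genes most alike to each and up to 4 genes of each list. Alternatives were quantile normalization, a prior that is trended and robust, array medians taken off, only brighter probe sets, no fold minimum, the mean of a gene's probe sets, the Gapdh difference or the adipocyte marker mean as a covariate, the 2 groups alone, joined controls, the CHO-free group without mice TS34 and TS35, and leaving out each array in turn. Exact permutation tests used scipy 1.17.1 in Python 3.11.15, and figures matplotlib 3.10.9.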

Additional observations from a re-analysis of the deposited data

Results flagged for a closer look

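Of 119 pairs of a probe set and a group of 4 or 5 mice, 6 had 1 mouse far from the others of its group, by a gap that takes up most of the group's range. Chance flags about 1 in 20 groups. For the dimmer probe set of Adgrf5, fasted mouse K344 had 7.4062, where the other fasted mice had 6.99 to 7.04. For Tmem64 (1434307_PM_at), fasted mouse K343 had 9.1668 and the others 8.85 to 8.90. For Plekha7, SDS mouse K346 of the fasting cohort had 6.2564 and the others 5.93 to 5.99. For Cbx7, fat-free mouse TS42 had 6.5425 and the others 6.08 to 6.13, and for the dim Cbx7 probe set 1420039_PM_s_at CHO-free mouse TS31 had 3.7465 and the others 2.94 to 3.15. For Anxa13, Control mouse TS28 had 5.3294 and the others 5.66 to 5.78. In 5 of the 6 cases the mouse was the highest of its group, and for Anxa13 it was the lowest.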

How the results depend on the processing

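No member changed sign in a comparison where it was called, in any alternative. The 7 genes called after fasting kept their call in every alternative but the mean of all probe sets of a gene, which kept 4 of them, lost Cbx7, Gna14 and Plekha7 and gained Adgrf5 (5 in all), and the 0 genes of the fat-free and of the Control against SDS comparison stayed 0. With that mean, 3 genes were called in 30%DR, against 5 (2 kept, Tspan13 gained), and 3 on the protein-free diet, against 6. The Gapdh difference as a covariate left 2 of the 6 called on the protein-free diet (Cbx7 and Anxa13), 2 of the 4 on the CHO-free diet (Tmem64 and Anxa13) and 1 of the 3 in CHO-free against fat-free mice (Anxa13), where a fit of the 2 groups alone and a fit without the CHO-free mice TS34 and TS35 gave 1 as well. The cause was not tested. Leaving out 1 mouse in turn gave 2 to 5 genes in 30%DR (2 without SDS mouse TS55 or TS58 and 3 without TS56, which leaves 2 controls), 2 to 6 on the protein-free diet (2 without Control mouse TS29, 3 without TS30 or protein-free mouse TS51), 4 each time on the CHO-free diet, and 1 to 3 in CHO-free against fat-free mice (1 without fat-free mouse TS38 or TS42 or CHO-free mouse TS34 or TS35). The dim probe sets of Cbx7 and Plekha7, and Anxa13 in CHO-free mice, lie near the array medians, and the low signal limits what they show.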
